A study of Homo sapiens with 14 samples.

Results

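The 36 CpG sites described here lie in the first 194 bp of TEAD4 on chromosome 12 (GRCh38), from position 2959397, where the annotated gene begins, to position 2959590. They are every listed CpG in that window and make up 36 of the 157 sites measured. The window itself was chosen with earlier results of these data known. TEAD4 spans 2959397 to 3040676. A long non-coding RNA gene annotated on the reverse strand, LOC124902859 (2957598 to 2960048), covers the same window. No exon, intron or UTR annotation was used.

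HGC-27 is a line derived from a gastric carcinoma, and its DNA was assayed in 7 groups of 2 libraries (14 in all) by amplifying and sequencing bisulfite-converted fragments. Untreated cells (2 libraries) are plain HGC-27. The gRNA-only cells (6 libraries) are HGC-27 transfected with 7 guide RNAs designed against the TEAD4 promoter and sampled on days 3, 7 and 14. The edited cells (6 libraries, same days) belong to a line named Tr.HGC-27-KRAB, were transfected with the DNMT3AL domain and received the same 7 guides. Edited and gRNA-only cells therefore differ both in the KRAB line and in the DNMT3AL domain, and no arm separates the 2. After transfection cells were kept in doxycycline and blasticidin for some days, per the labels' protocols. Nothing in the sources used here tells if the replicates came from separate cultures, or if the KRAB line is 1 clone. The p-values therefore cover the spread among the libraries and nothing beyond it, and that spread may be technical. The read depth per site is unknown, and no counting interval is given.

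TEAD4 is a TEA domain transcription factor that binds DNA and recruits the coactivators YAP and TAZ, the effectors of the Hippo pathway. Promoters rich in CpG are usually unmethylated in active genes, and dense methylation around a transcription start goes with silencing. DNMT3A places methyl groups on unmethylated CpGs, DNMT3L is its inactive partner that stimulates it, and KRAB is a repressor domain of zinc finger proteins that recruits heterochromatin factors. Guide RNAs direct such domains to a chosen sequence when these are fused to a Cas9 protein without cutting activity.

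The window was dense in CpGs. It held 18.6 listed sites per 100 bp, against 12.5 in the 64 sites before the start and 8.14 in the 42 sites that follow in the gene up to 2960277. The median spacing between neighbouring sites was 4 bp, with a range of 2 to 18 bp. The closest neighbours, 2 bp apart, included CpG 2959401 and CpG 2959403 at the start of the window, and CpG 2959559 and CpG 2959561 near its end. The widest gap inside the window, 18 bp, separated CpG 2959572 from CpG 2959590. After CpG 2959590 no site was listed for 172 bp.

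The sites fell into 4 kinds by their level. CpG 2959401, 4 bp into the gene, was at an intermediate level in every library. The 33 consecutive sites from CpG 2959403 to CpG 2959566, called the stretch below, were low in controls and higher in edited cells. CpG 2959572, 175 bp into the gene, was almost fully methylated in every library. CpG 2959590, the last, was near 0 in controls and ranged widely in edited cells. The limits of the stretch were set after the values were seen, and its mean is given as a description.

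**Figure D1:**
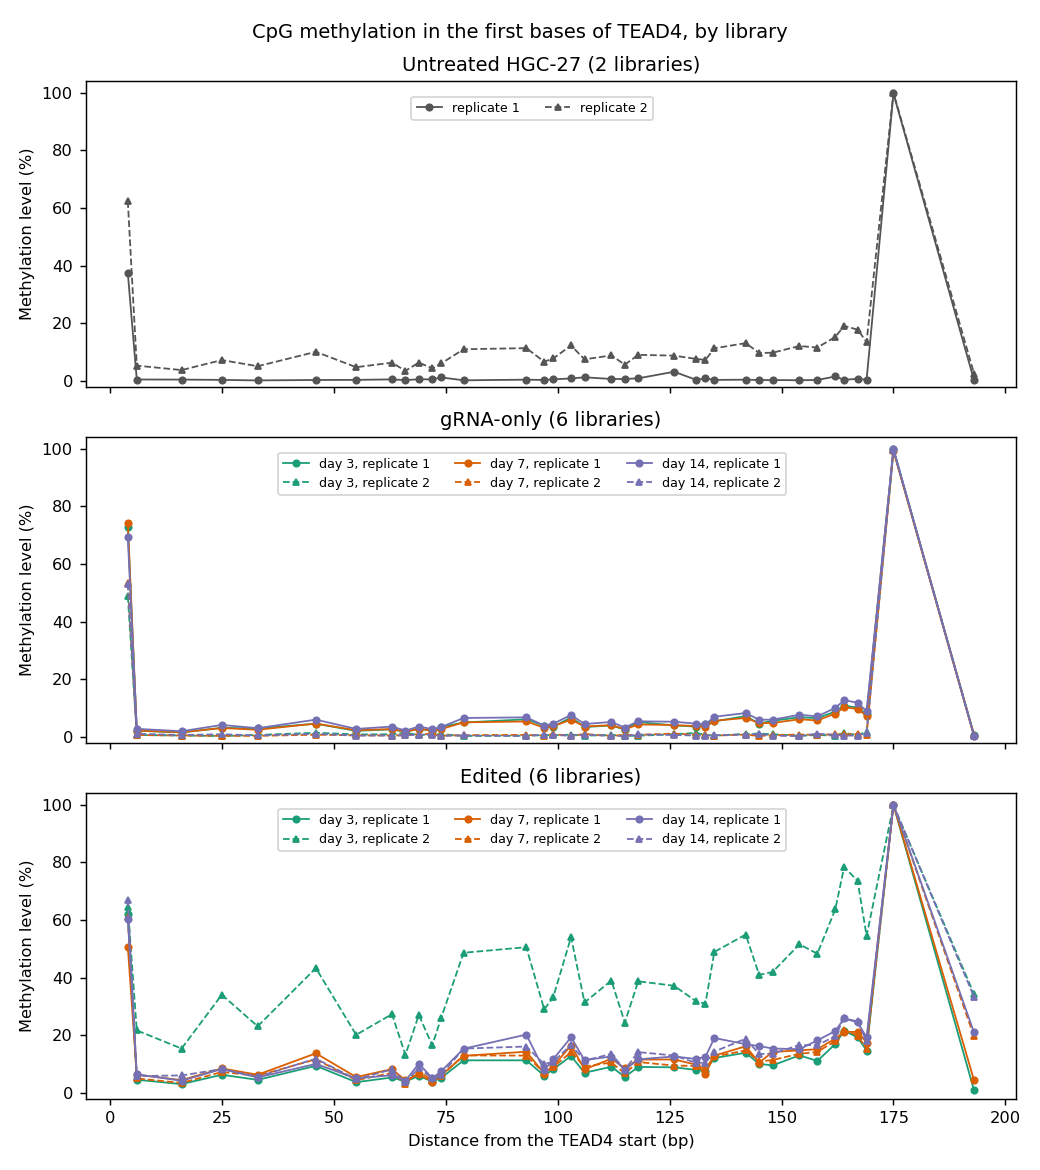
Methylation level in percent (y axis) against distance from the TEAD4 start in bp (x axis) at the 36 sites, with 1 line per library and 1 panel per arm. Edited day 3 replicate 2 lies above every other library in the stretch, and untreated replicate 2 and gRNA-only replicate 1 of every day lie above the remaining controls.

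In the mean over the 36 sites, edited cells were more methylated than gRNA-only cells on every day, and on day 3 the 2 edited libraries differed widely. The edited libraries had 12.97% and 40.9% on day 3 (replicates 1 and 2), 14.4% in both on day 7, and 16.7% and 16.9% on day 14. With guides alone the mean was 9.16% and 4.88% on day 3, 8.93% and 4.92% on day 7, and 9.84% and 4.88% on day 14. Untreated cells had 4.41% in replicate 1 and 12.9% in replicate 2. Every edited library thus lay above every gRNA-only library, while untreated replicate 2 was just under the lowest edited library.

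The mean was 19.4% ± 10.6 (SD, n = 6) over the edited libraries, 7.10% ± 2.44 (SD, n = 6) over those with guides alone and 8.66% ± 6.02 (SD, n = 2) over the untreated ones. The difference between edited and gRNA-only cells was 12.3 percentage points (two-sided exact permutation within days, p = 0.00926, the smallest this design allows, adjusted p = 0.0463 over 5 tests of window means). Without edited day 3 replicate 2 the difference was 7.64 points and did not pass after adjustment over the 5 tests (exact permutation p = 0.0185, adjusted p = 0.0793), and the 5 other edited libraries averaged 15.1% ± 1.66 (SD, n = 5). The call was also lost without gRNA-only day 3 replicate 1 (13.004 points, exact permutation p = 0.0741, adjusted p = 0.185) or replicate 2 (11.6 points, exact permutation p = 0.0926, adjusted p = 0.393), and it passed in 9 of the 12 omissions of 1 edited or gRNA-only library. The gRNA-only libraries fell into 2 levels by replicate number on every day, so that counting them as 6 independent libraries is an assumption. With same-numbered libraries as pairs the exact permutation p was 0.0312, the smallest that pairing allows, and the adjusted p was 0.156. Edited cells exceeded untreated cells by 10.7 points (two-sided exact permutation p = 0.25, adjusted p = 0.417). The smallest exact permutation p that this comparison allows was 0.0357, from 28 arrangements. Without edited day 3 replicate 2 that difference was 6.43 points (exact permutation p = 0.0476, adjusted p = 0.0793). The gRNA-only mean was 1.56 points under the untreated mean (difference -1.56, two-sided exact permutation p = 0.571, adjusted p = 0.639).

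**Figure D2:**
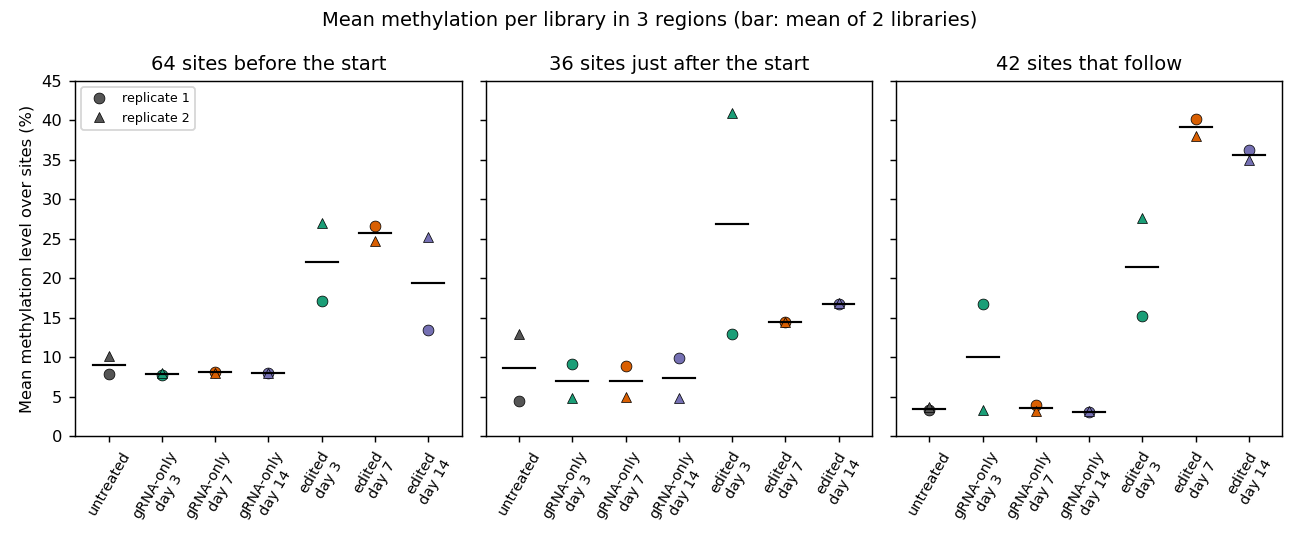
Mean methylation level per library in percent (y axis) for the 64 sites before the TEAD4 start, the 36 sites just after it and the 42 sites that follow, by arm and day (x axis); circles are replicate 1, triangles replicate 2, bars the mean of 2 libraries. In the middle panel edited day 3 replicate 2 stands at 40.9% and the other edited libraries between 12.97 and 16.9%.

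Site by site, 35 of the 36 sites rose in edited over gRNA-only cells with the 3 days together and 0 fell, at a Benjamini-Hochberg adjusted p under 0.05 from limma on a log2 odds scale, adjusted over all 157 sites. The background was 85.4% of all sites, so the share called in the window was close to that of the whole table. At 34 of the 36 sites every edited library lay above every gRNA-only library, against 65.6% of all sites. The exceptions were CpG 2959401 and CpG 2959572. The median difference over the 36 sites was 12.1 points, beside 10.4 points over all sites. On the log2 odds scale the median was 2.92 in the window and 3.32 over all sites.

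On single days the window gave few calls. On day 3, 0 of 36 sites passed limma's threshold (a quasi-binomial fit also called 0, against 15.9% of all sites). Before adjustment, 16 of the 36 had a limma p under 0.05. Over all sites limma called 29.9% that day, and all 47 of these lay among the 64 sites before the start. The 42 sites that follow also gave 0 calls on day 3, but 40 on day 7 and 41 on day 14. On day 7, 2 sites of the window passed, CpG 2959572 and CpG 2959590, against 60.5% of all sites. At CpG 2959572 the day 7 difference was only 0.601 points, between means of 99.4 and 99.96%, and at CpG 2959590 it was 11.5 points. On day 14 only CpG 2959590 passed in the window, against 56.7% of all sites. The median difference over the window was 18.6 points on day 3, 7.63 on day 7 and 8.90 on day 14, beside 11.6, 10.01 and 9.39 points over all sites. Between edited cells of day 14 and day 3, 0 sites of the window passed limma's threshold, with 0 unadjusted (a quasi-binomial fit called 0), and 0% of all sites did. The largest difference, at CpG 2959561, was -24.1 points (limma adjusted p = 0.894).

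Single libraries decided these counts. Without gRNA-only day 3 replicate 1, 14 sites were called on day 3 (59.9% of all sites), and without edited day 3 replicate 1, 8 were (36.3%). The day 3 count was 6 without either untreated library (34.4%) and 1 without either gRNA-only library of day 14 (28%). The day 7 count was 0 without any 1 of the 4 libraries of that day (43.3 to 56.7% of all sites). It was 1 without any 1 of the gRNA-only libraries of days 3 and 14 or the edited libraries of day 14 (58 to 59.2%). The day 14 count was 4 without gRNA-only day 14 replicate 1 (47.8%). It was 0 without replicate 2 of either arm on that day (39.5% for gRNA-only and 31.8% for edited). The 35 calls over all days became 25 to 27 without edited day 3 replicate 2 or without replicate 2 of any gRNA-only day (78.3 to 79.6%). Without the 4 control libraries raised in the stretch (untreated replicate 2 and, on each day, replicate 1 with guides alone), the calls were 35 over all days (82.2% of all sites), 32 on day 3 (68.8%), 29 on day 7 (75.8%) and 30 on day 14 (70.1%). With those 4 as the only controls, 1 site was called over all days, CpG 2959590, against 59.9% of all sites. The 4 libraries were chosen after the data were seen for being high at these sites, which by itself raises the calls without them and lowers the calls with them alone, so neither count supports a difference. Both omissions left 1 library per control group, whose spread was then taken from the edited groups.

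Over untreated cells, limma called 1 of the 36 sites higher and 0 lower at an adjusted p under 0.05 (6 unadjusted), while 58% of all sites rose. That site was CpG 2959590. At 14 of the 36 sites every edited library lay above both untreated libraries, against 66.2% of all sites. The limma count was 31 without untreated replicate 2 (77.1% of all sites) and 8 without edited day 3 replicate 1 (62.4%). It was 0 without untreated replicate 1 (32.5%), edited day 7 replicate 2 (52.9%) or edited day 14 replicate 2 (51.6%). Between gRNA-only and untreated cells 0 sites passed, with 0 unadjusted (a quasi-binomial fit called 0), and 0% of all sites did. The largest difference, 12.1 points, was at CpG 2959401 (limma adjusted p = 0.994).

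The stretch of 33 sites carried most of the window's pattern. Its mean was 9.21 and 38.6% in the edited libraries of day 3 (replicates 1 and 2), 11.1 and 10.3% on day 7, and 12.7 and 12.3% on day 14. With guides alone it was 4.74 and 0.812% on day 3, 4.48 and 0.711% on day 7, and 5.60 and 0.681% on day 14. Untreated cells had 0.644 and 9.10%. Untreated replicate 2 and edited day 3 replicate 1 were at nearly the same level, and untreated replicate 2 was the higher of the 2 at 17 of 33 sites. Edited day 3 replicate 2 was the highest of the 14 libraries at 33 of 33 sites. In each of the 3 gRNA-only days replicate 1 lay above replicate 2 at 33 of 33 sites, and untreated replicate 2 lay above replicate 1 at 33 of 33.

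Over all days the edited mean exceeded the gRNA-only mean by 4.05 to 26.3 points at these 33 sites, a range given as a description since the stretch was delimited on such values. The 5 sites with the largest difference of the window were in this stretch, and 4 of them were its last 4 sites. These are CpG 2959559, CpG 2959561, CpG 2959564 and CpG 2959566, with 2 or 3 bp between neighbours.

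CpG 2959561, 164 bp into the gene and 2 bp after its neighbour, held the largest difference. Its edited levels were 21.6 and 78.4% on day 3, 21.2 and 21.9% on day 7, and 25.8% in both on day 14. Its gRNA-only levels were 10.9 and 1.44% on day 3, 10.3 and 0.888% on day 7, and 12.8 and 0.498% on day 14, and untreated cells had 0.378 and 19.1%. The edited libraries did not overlap the gRNA-only or the untreated ones, although untreated replicate 2 was close to the lowest edited library. The difference from gRNA-only cells was 26.3 points, or 3.69 ± 1.27 (SE) on the log2 odds scale (limma adjusted p = 0.0192). Without edited day 3 replicate 2 it was 16.9 points and no longer passed (limma adjusted p = 0.0554).

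CpG 2959564, the next site, had 30.5% ± 21.2 in edited and 5.66% ± 5.46 in gRNA-only cells (SD, n = 6 each), a difference of 24.9 points (limma adjusted p = 0.0159). CpG 2959559 had 26.5% ± 18.3 and 4.85% ± 4.59 (SD, n = 6 each), a difference of 21.6 points (limma adjusted p = 0.0118). CpG 2959566 had 23.2% ± 15.4 and 4.70% ± 3.71 (SD, n = 6 each). CpG 2959500, 103 bp into the gene, stood out from its neighbours with 22.3% ± 15.8 against 3.69% ± 3.47 (SD, n = 6 each) and a difference of 18.6 points (limma adjusted p = 0.0118). The SD of the edited arm was far smaller without day 3 replicate 2, at 2.58 points for CpG 2959564 and 2.50 points for CpG 2959500 (n = 5).

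The smallest difference of the stretch was at CpG 2959463, 66 bp into the gene, with edited levels of 3.96 and 13.2% on day 3, 4.40 and 3.25% on day 7, and 4.24 and 3.66% on day 14. The gRNA-only median there was 1.61% (range 0.558 to 2.20%). Its difference of 4.05 points passed limma's threshold (adjusted p = 0.0174), but not without edited day 3 replicate 2 (2.50 points, limma adjusted p = 0.0518). Its neighbours 3 bp away on either side, CpG 2959460 and CpG 2959466, had differences of 8.56 and 9.06 points. High and low sites thus alternated over a few base pairs. Another such pair, CpG 2959530 and CpG 2959532, 2 bp apart, had edited means of 12.8% ± 9.14 and 20.02% ± 14.4 (SD, n = 6 each).

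This order of high and low sites recurred across libraries. In 10 libraries (all 6 edited, untreated replicate 2 and gRNA-only replicate 1 of every day), Pearson's r over the 33 sites lay between 0.929 and 0.999 for the 45 pairs, with a median of 0.979. These correlations are across sites of 1 region, which share amplicons and reads and are not independent replicates. With the 2 highest sites left out, r with edited day 3 replicate 2 still ran from 0.940 to 0.995. In 9 of the 14 libraries CpG 2959561 was the highest of the 33 sites. The 4 other control libraries were flat: their sites lay between 0.202 and 3.20%, their r with one another between -0.086 and 0.462, and their r with edited day 3 replicate 2 between 0.0007 and 0.239.

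Between these libraries the sites kept roughly constant ratios. Relative to edited day 3 replicate 2, untreated replicate 2 stood at a median ratio of 0.236 per site, with a narrow range of 0.227 to 0.246 between the 10th and 90th percentile of the 33 sites. For gRNA-only replicate 1 the median ratio was 0.121 on day 3, 0.112 on day 7 and 0.141 on day 14. For the other edited libraries it was 0.233 on day 3, 0.288 and 0.268 on day 7, and 0.330 and 0.326 on day 14. The widest range among the 9 was that of edited day 14 replicate 1, from 0.245 to 0.387. In the 4 flat control libraries the median ratio was 0.016 to 0.023.

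**Figure D3:**
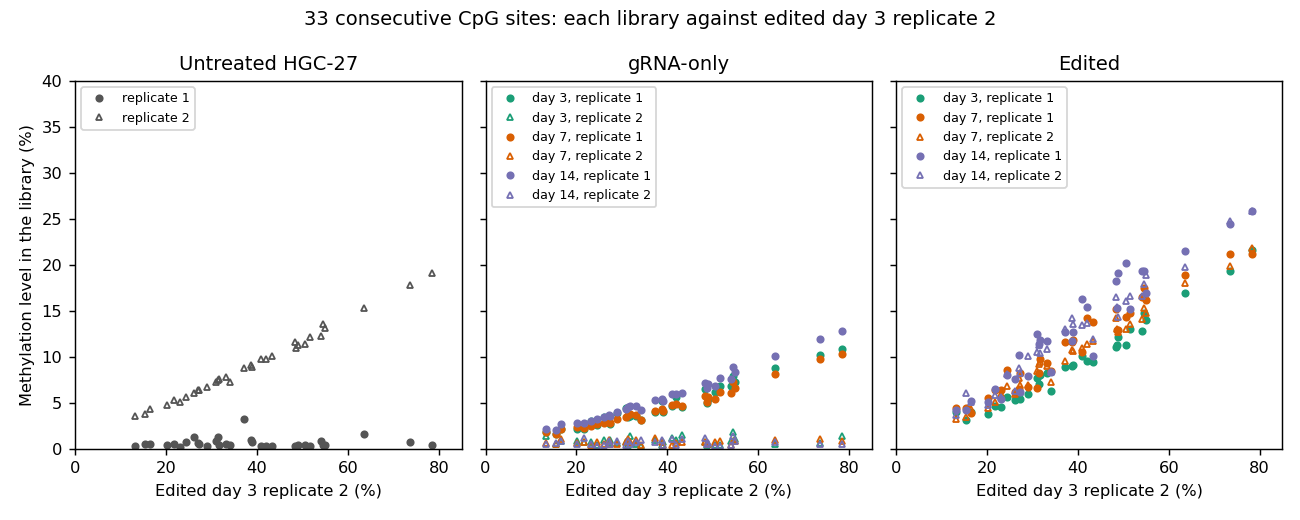
Methylation level of each library in percent (y axis) against that of edited day 3 replicate 2 (x axis) at the 33 sites of the stretch, 1 panel per arm. The 5 other edited libraries, untreated replicate 2 and gRNA-only replicate 1 of every day rise along nearly straight lines of different slope. The 4 other controls stay at or below 3.20%.

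The 4 control libraries with this profile were not raised alike elsewhere. Before the start, the 3 libraries of gRNA-only replicate 1 were at 7.78, 8.12 and 8.01% (days 3, 7 and 14) and those of replicate 2 at 8.03, 8.04 and 7.99%, while untreated cells had 7.88 and 10.2%. In the sites that follow the window, replicate 1 was at 16.7, 3.94 and 3.03% and replicate 2 at 3.36, 3.12 and 3.14%, and untreated cells had 3.31 and 3.63%. What raised these 4 libraries in the stretch was not tested.

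Levels in the stretch increased with distance from the start. The first 16 sites averaged 8.17% ± 1.05 in the 5 edited libraries other than day 3 replicate 2 and the later 17 averaged 13.9% ± 1.84 (SD, n = 5). In edited day 3 replicate 2 the values were 30.2 and 46.5%. Within single libraries the later sites were higher by a factor of 1.54 to 1.76 in edited cells, 1.69 to 1.74 in gRNA-only replicate 1 and 1.58 in untreated replicate 2. Across the 33 sites, Pearson's r between the edited mean and position was 0.751, given as a description.

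Within the stretch, levels were somewhat higher where the next CpG was close. Over the 33 sites, those followed by a CpG 2 to 3 bp away (15 sites) averaged 16.6% ± 11.7 in edited cells, those at 4 to 9 bp (15 sites) 15.6% ± 11.3 and those at 10 bp or more (3 sites) 12.1% ± 9.37 (SD, n = 6 each). In gRNA-only cells the same classes had 3.03% ± 2.54, 2.78% ± 2.26 and 2.12% ± 1.66 (SD, n = 6 each). The level fell from the closest to the widest class in all 6 edited libraries and in 5 of the 8 controls. In edited cells the closest class exceeded the widest by 2.89 to 9.16 points within a library. The widest class holds 3 sites, CpG 2959403 and CpG 2959430 among them. All 3 lie in the lower, early part of the stretch (its first 16 sites), so spacing and position cannot be told apart there. Pearson's r between the edited mean and the distance was -0.227 over the 33 sites, which share amplicons and libraries. Neighbouring sites were not more alike when close: the median step in edited mean between neighbours was 5.55 points for the 15 pairs 2 to 3 bp apart and 3.10 points for the 17 pairs farther apart. The 3 sites outside the stretch were left out of these spacing values.

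**Figure D4:**
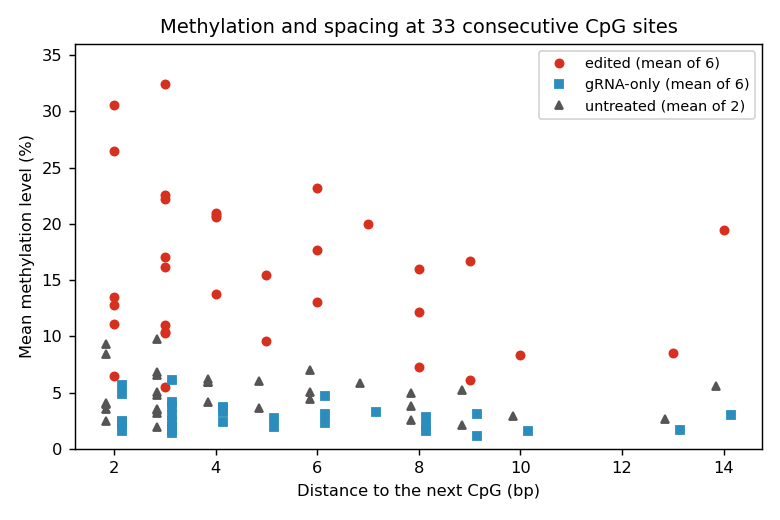
Mean methylation level in percent (y axis) of each of the 33 sites of the stretch against the distance to the next CpG in bp (x axis), for edited, gRNA-only and untreated cells, with symbols of the 3 arms set slightly apart. Edited levels at spacings of 2 and 3 bp cover the whole range of the 33 sites, from 5.45 to 32.4%.

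CpG 2959401, the first site of the gene, did not differ between arms beyond the spread. It had 62.2 and 64.5% in edited cells on day 3, 50.7 and 60.9% on day 7, and 60.5 and 66.9% on day 14. The gRNA-only levels were 72.8 and 48.9%, 74.3 and 53.3%, and 69.2 and 53.2% on the same days, and untreated cells had 37.4 and 62.3%. The difference between edited and gRNA-only cells was -0.996 points (limma adjusted p = 0.877). Here too replicate 1 of each gRNA-only day and untreated replicate 2 were the 4 highest of the 8 controls, from 62.3 to 74.3%, and the others had 37.4 to 53.3%. Its neighbour 2 bp on, CpG 2959403, had 8.35% ± 6.59 in edited and 1.62% ± 0.902 in gRNA-only cells (SD, n = 6 each).

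CpG 2959572 was between 99.3 and 99.96% in all 14 libraries. Its all-days difference of 0.351 points passed limma on the log2 odds scale (adjusted p = 0.0163) but not with an offset of 1 in place of 0.1 (limma adjusted p = 0.0639) or on untransformed percent (limma adjusted p = 0.421). The site lies 6 bp after CpG 2959566, which averaged 23.2% ± 15.4 in edited cells (SD, n = 6).

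CpG 2959590, the last site of the window, had another order of libraries than the stretch. Its edited levels were 0.947 and 34.3% on day 3, 4.39 and 19.6% on day 7, and 20.99 and 33.3% on day 14. In the 6 gRNA-only libraries the median was 0.552% (range 0.241 to 0.798%), and untreated cells had 0.239 and 2.55%. Edited day 3 replicate 1 was thus below untreated replicate 2, and on days 7 and 14 every edited library was above all controls. The difference from gRNA-only cells was 18.4 points, or 4.55 ± 0.96 (SE) on the log2 odds scale (limma adjusted p = 0.00165). It also passed on day 7 (11.5 points, limma adjusted p = 0.048), on day 14 (26.7 points, limma adjusted p = 0.0118) and against untreated cells (17.5 points, limma adjusted p = 0.0318). Here gRNA-only replicate 1 was not raised, with 0.667, 0.241 and 0.472% on days 3, 7 and 14.

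The window was set against its surroundings within each library. The sites before the start averaged 22.4% ± 5.66 in edited and 7.996% ± 0.113 in gRNA-only cells, and the sites that follow 32.1% ± 9.32 and 5.56% ± 5.49 (SD, n = 6 each). The gain of the window over gRNA-only cells was 2.07 points smaller than that of the sites before the start (difference -2.07, two-sided exact permutation within days p = 0.639, adjusted p = 0.639). Its sign depended on single libraries. The difference was -5.06 points without edited day 3 replicate 2 and 0.928 points without edited day 3 replicate 1. The window's gain was 14.2 points smaller than that of the sites that follow (difference -14.2, two-sided exact permutation within days p = 0.0556, adjusted p = 0.139). That second difference was -16.8 points without edited day 3 replicate 2 (two-sided exact permutation p = 0.037, adjusted p = 0.0793) and -15.7 points without gRNA-only day 3 replicate 1 (two-sided exact permutation p = 0.037, adjusted p = 0.185).

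The order of the edited libraries also differed between regions. On days 7 and 14 the 4 edited libraries had 14.4 to 16.9% in the window and 35.03 to 40.2% in the sites that follow. On day 3 replicate 2 had 40.9% in the window and 27.6% in the sites that follow. Before the start, edited day 14 replicate 1 was the lowest of the 6 at 13.5%, whereas in the window it was the third highest.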

How the data were processed

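For each library the authors deposited 1 table of percent methylation, written with decimal commas, at the same 157 CpG positions. Trim Galore 0.6.7 and Bismark 0.23.1 on hg38 are named in the submitters' processing notes; filters, strand merging and coverage are not given in the sources used here. Groups came from the sample titles, which give the arm, the replicate number and, for treated cells, the day, and name no batch. The highest number of identical values between 2 libraries was 0.

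Levels were taken to log2((percent + 0.1)/(100 − percent + 0.1)) and fitted with limma 3.58.1 in R 4.3.3 on the complete table of 157 sites by 14 libraries with 7 group means. The fit was also run on simulated levels with independent noise of 1 common SD at all sites. The measured sites are correlated, so that run does not show how reliable the calls here are. Library means over sites were compared by exact permutation (Python 3.11.15, numpy 2.4.6). Libraries from different days of 1 arm were treated as independent. Named sites were the first and last, the 5 largest and 3 smallest differences, those not called, the largest of each other comparison and the neighbours at the widest and narrowest gaps; CpG 2959430, CpG 2959460 and CpG 2959466 were added after their values were seen. The sites, named sites and tests were chosen with earlier results of these data known. Gene positions are from RefSeq (GRCh38.p14).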

Additional observations from a re-analysis of the deposited data

Results flagged for a closer look

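Among the 6 edited libraries, day 3 replicate 2 stood apart in the mean over the 36 sites, with 40.895%, a gap of 0.861 of the whole range to the next library. It was also the far library at 15 of the 17 named sites. The levels were 21.724% at CpG 2959403, 13.227% at CpG 2959463, 16.529% at CpG 2959469, 26.138% at CpG 2959471, 28.987% at CpG 2959494, 33.163% at CpG 2959496, 54.079% at CpG 2959500 and 31.736% at CpG 2959528. They were 30.965% at CpG 2959530, 48.921% at CpG 2959532, 63.632% at CpG 2959559, 78.374% at CpG 2959561, 73.539% at CpG 2959564 and 54.460% at CpG 2959566. At CpG 2959572 the same library was the lowest, with 99.742%. It did not stand apart at CpG 2959401 or CpG 2959590, nor in the mean of the sites before the start (27.0%) or of those that follow (27.6%).

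With guides alone, day 3 replicate 1 was far from the other 5 libraries in the window mean less the mean of the sites that follow, at -7.587 points, with a gap of 0.6325 of the range. Its mean in the sites that follow, 16.7%, was itself far from the others (gap 0.933). For 6 values Dixon's limit at the usual level is 0.625. Of 44 sets of 6 libraries examined, chance exceeds that value in about 1 in 20, and neighbouring sites are not independent sets.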

How the results depend on the processing

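The window mean of edited minus gRNA-only cells ranged from 7.64 to 16.9 points with 1 library left out, and no longer passed after adjustment over the 5 tests without edited day 3 replicate 2 (adjusted p = 0.0793, exact permutation), or before it without gRNA-only day 3 replicate 1 (13.004 points, exact permutation p = 0.0741) or replicate 2 (11.6 points, p = 0.0926, exact permutation) or with the 4 raised control libraries alone (10.1 points). Against untreated cells it ranged from 6.43 to 14.99 points and passed before adjustment only without edited day 3 replicate 2. Leaving out an untreated library left 7 arrangements, too few for any result to pass. The difference from the sites that follow ranged from -16.8 to -11.7 points. The all-days count of 35 was 1 with the 4 raised control libraries alone. On day 3 the count of 0 became 32 without those 4 and 0 to 14 with 1 library left out. On day 7 the count of 2 became 0 with an offset of 1, 0 on untransformed percent, 1 with quasi-binomial regression, 1 with a minimum difference of 5 points, 29 without the 4 raised controls, 1 with them alone and 0 to 2 with 1 library left out. On day 14 the count of 1 became 0 on untransformed percent, 30, 0 and 0 to 4 in the same order. Against untreated cells 1 became 0 on untransformed percent, 0 with quasi-binomial regression, 32, 0 and 0 to 31. No called difference changed sign. The causes were not tested.

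With the replicate number as a block, 35, 0, 2 and 1 sites were called over all days and on days 3, 7 and 14, as without it. The shares of all sites were 84.7, 29.3, 60.5 and 58%. Same-numbered libraries as pairs gave 12.3 points (exact permutation p = 0.0312, adjusted p = 0.156). Deviations of same-numbered libraries correlated from -0.727 to 0.751 over 21 pairs of groups, so the numbers were not taken to pair them across arms, although within the gRNA-only arm replicate 1 was the higher on every day; on day 3 r was -0.405, and crossing the 2 numbers there left the 35 and 0 calls. The unknown depth limits every level, most of all those under 1%.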
